A study of Mus musculus with 12 samples.

Results

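The cytosolic ribosomal protein genes were followed through 4 states of mouse CD8+ T cells. Members were chosen by name from the deposited gene table: symbols made of Rpl or Rps and a number, with an optional closing letter or number, together with Rplp0, Rplp1, Rplp2 and Rpsa. Symbols holding -ps, the Rps6k kinases and Rps4x were left out. The rule found 88 of the 55291 symbols. Of these, 76 are canonical protein-coding genes, 30 for the small and 46 for the large ribosomal subunit, spread over 19 chromosomes with 3 on the X. A further 6 are paralogs with a protein-coding annotation (Rps27l, Rpl3l, Rpl7l1, Rpl10l, Rpl22l1 and Rpl39l). The last 6, Rps4l, Rps12l1, Rps3a2, Rps3a3, Rpl6l and Rpl32l, are annotated as processed pseudogenes in GENCODE release M21.

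A cytosolic ribosome joins ribosomal RNA with a set of proteins that are needed in equal numbers: the small subunit reads the messenger RNA, and the large subunit forms the peptide bonds. Ribosomal protein messenger RNAs belong to the most abundant of the cell, and many start with a run of pyrimidines, the 5′ terminal oligopyrimidine or TOP motif, through which mTORC1 and the RNA-binding protein LARP1 control their stability and translation. T cells that leave quiescence build more ribosomes as they grow and divide.

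The cells were CD8+ T cells of wild-type (WT) male mice, taken from spleen and lymph nodes, and bulk RNA sequencing gave 12 libraries, 3 in each of 4 groups. The naive group was lysed fresh at day 0 without activation. The other groups share an activation for 2 days on plate-bound anti-CD3 with soluble CD28 and an expansion for 1 day in recombinant mouse IL-2. At day 3 these cells went for 24 hours into media, into a gel of bovine collagen (Nutragen, 2 mg/mL) or into a gel of rat tail collagen (RatCol, 2 mg/mL), and RNA was taken at day 4. Naive cells therefore differ from the media group by activation, expansion and time in culture together, and the gels differ from each other in product and species of origin together. The age of the mice is not given in the sources used here, and n = 3 mice per group is stated without saying whether a library number marks the same mouse in several groups, so p-values measure the spread between these libraries.

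Start regions are shown first because TOP motifs are the sequence feature that ribosomal protein genes are best known to share. RefSeq promoters (GRCm38.p6) were found for 56 of the 76 canonical genes, as 66 start sites. Each line below gives the 20 bases before and the first 20 bases of the transcript, 5′ to 3′ in the direction of transcription, with capitals for a run of C followed by 4 or more pyrimidines that begins exactly at the annotated start. The first 5 genes carry such a run, and their level changes between naive and media cells range from -1.48 to -0.06 on the log2 scale. The last 4 do not carry one at the start. They include Rps27l and Rpl13a, whose levels rose where most members fell, and Rps13, which had -1.03. These 9 genes were picked for display. Between media and naive cells, 9 of the 13 canonical genes with the run were called lower, and 25 of the 43 with other RefSeq starts. Of all genes tested there, 29.2% were called lower and 31.6% higher.
Rps27: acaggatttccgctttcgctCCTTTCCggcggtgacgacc
Rplp2: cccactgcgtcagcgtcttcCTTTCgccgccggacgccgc
Rpl38: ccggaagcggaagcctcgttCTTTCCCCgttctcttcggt
Rps6: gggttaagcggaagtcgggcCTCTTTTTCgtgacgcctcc
Rpl15: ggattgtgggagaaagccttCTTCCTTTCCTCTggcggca
Rps13: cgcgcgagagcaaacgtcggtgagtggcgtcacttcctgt
Rpl4: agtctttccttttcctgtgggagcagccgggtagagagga
Rpl13a: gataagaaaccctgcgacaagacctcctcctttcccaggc
Rps27l: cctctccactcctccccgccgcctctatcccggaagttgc
In the order shown, the regions lie at chr3:90213629-90213668 on the minus strand, chr7:141447631-141447670 on the plus strand, chr11:114668560-114668599 on the plus strand, chr4:86857348-86857387 on the minus strand, chr14:18270967-18271006 on the minus strand, chr7:116334171-116334210 on the minus strand, chr9:64173367-64173406 on the plus strand, chr7:45128726-45128765 on the minus strand and chr9:66946066-66946105 on the plus strand. A run of C and 4 or more pyrimidines exactly at the start was present at 13 of the 66 canonical start sites (19.7%) and at 2.505% of all 32851 RefSeq promoters in the table. Allowing the run to begin within 10 bases of the start raised these shares to 54.55% and 30.72%, and Rpl13a and Rps27l then counted as carrying one. In the 300 bases around the start, on either strand, the letters CCGGAAG (the core bound by GABP and other ETS factors) were found at 37.88% of canonical start sites and 8.858% of all promoters. The same shares were 16.67% and 6.338% for AAGATGG (the YY1 core), 60.61% and 35.66% for GGGCGG (the Sp1 core), and 9.091% and 13.62% for TATAAA (the TATA box).

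Ribosomal protein genes have many near-identical processed copies, and this bears on what a count of a member means. The table holds 319 symbols with -ps, of which 317 are named after a member and belong to 62 members. Their summed counts came to 49.5% to 51.4% of the members' own counts in every one of the 12 libraries, so the ratio of the copies to the parents barely differed between groups. For single genes the ratio differed widely: the 4 -ps symbols of Rps10 held 1740% of its counts, the 7 of Rps13 held 575.9% and the 11 of Rpl17 held 930.9%. Rps27, Rps29, Rpl4, Rplp0 and Rplp1 had -ps symbols with under 2% of their counts or none listed. Copies under other names are not in these ratios, such as Rps27rt, a retrotransposed copy of Rps27, and Rps12l1. In naive 1, Rps12l1 had 6603 counts and Rps12 had 3354. How reads matching several copies were counted, and whether strand was used, is not given in the sources used here. Exons of 21 canonical genes overlap another annotated gene, in 18 cases on the opposite strand and in 4 (Rpl13a, Rpl19, Rpl24 and Rps10) on the same strand. Levels of these genes, and those of Rps3a1, Rps3a2 and Rps3a3, which resemble each other, are uncertain to that extent. The same holds for members with copies under other names, such as Rps12 and Rps27.

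Library totals ran from 28483064 to 53138362 counts. Genes of ribosomal RNA took 3.96% to 5.67% of counts in naive and media libraries, 5.5% to 11.9% in bovine collagen and 5.03% to 13.2% in rat tail collagen, and the nuclear RNA Malat1 took 0.678% to 0.857% in naive cells, 0.179% to 0.295% in media, 0.195% to 0.276% in bovine and 1.11% to 1.47% in rat tail collagen. All 9 CD8+ T cell markers checked (such as Cd8a and Cd3e) were present in every group, with summed levels of 5445 to 6512 CPM (counts scaled to library size) in naive, 4175 to 4677 in media, 4215 to 4571 in bovine and 2950 to 3273 in rat tail libraries. The 8 myeloid markers summed to 32.85 to 128.2 CPM in naive cells and to 2.883 to 6.776 CPM at day 4, where S100a8 and S100a9 were at 0. The 6 B cell markers summed to 7.76 to 11.38 CPM in naive cells and 0.7138 to 1.674 CPM at day 4. The 3 CD4 and regulatory T cell markers summed to 10.28 to 22.58 CPM in naive, 25.12 to 37.67 in media and bovine and 59.32 to 70.76 in rat tail libraries. The sums were carried by Zbtb7b, which was called higher in media than in naive cells (log2 fold change 2.03) and again in rat tail collagen against media (1.04). Cd4 had -0.70 and -0.27 and Foxp3 -0.68 and 2.25 in these comparisons, none of them called. The 4 NK cell markers summed to 107 to 135.5 CPM in naive, 70.6 to 78.04 in media, 70.69 to 72.16 in bovine and 36.57 to 65.48 in rat tail libraries. Most of this came from Eomes, which CD8+ T cells also express. Klrb1c was called higher for rat tail collagen against media (4.71). Of the 3 NK cell markers tested in that comparison, 1 was called higher, 1 lower (-0.78) and 1 had no call. Whether Klrb1c entered the test only through its rat tail libraries was not checked. The 6 stromal and endothelial markers summed to 140.1 to 170.2, 131.1 to 147, 124.9 to 143.6 and 72.33 to 77.8 CPM in the same order. Nearly all of this came from Pecam1, which T cells also express. Col1a1, at under 1 CPM in the other groups, had 4.87, 3.83 and 4.14 CPM in rat tail collagen. The 6 red cell and platelet markers summed to 5.14 to 18.15 CPM in naive cells and 2.86 to 4.657 at day 4. What part these differences have in the results below was not tested. In bulk RNA, fewer cells of a type and less RNA per cell cannot be told apart, and all levels are relative to the total RNA sampled.

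Ribosomal protein genes took the largest share of counts in naive cells and the smallest in cells from rat tail collagen. Summed over the 88 members, the share was 4.40%, 4.57% and 5.35% in naive libraries 1, 2 and 3, 4.07%, 3.33% and 3.17% in media, 3.66%, 2.75% and 3.06% in bovine collagen and 2.59%, 2.95% and 2.59% in rat tail collagen. Every naive library lay above every media library, media and bovine collagen overlapped, and bovine collagen 2 lay below rat tail collagen 2. The group means were 4.77 ± 0.507% for naive, 3.52 ± 0.484% for media, 3.16 ± 0.461% for bovine and 2.71 ± 0.206% for rat tail collagen (SD, n = 3). With ribosomal RNA left out of the totals, bovine libraries ranged from 3.13% to 3.92% and rat tail libraries from 2.92% to 3.11%, and these no longer overlapped.

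**Figure D1:**
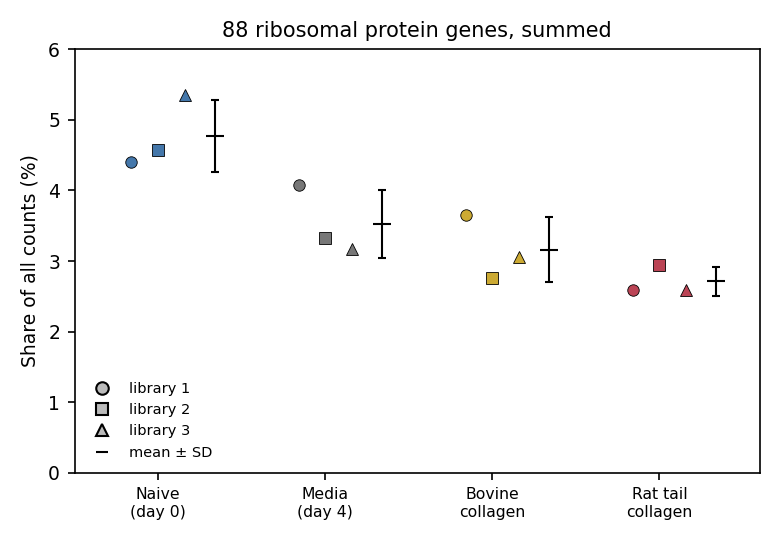
Share of all counts (%) taken by the 88 ribosomal protein genes in each of 12 libraries, with the mean and SD of each group beside the points and the axis starting at 0. Naive libraries lie between 4.40% and 5.35%, all above the media libraries at 3.17% to 4.07%; 2 of 3 rat tail libraries lie at 2.59%.

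The members moved up and down together between libraries of the same group. Of the 76 canonical genes, 75 had their highest naive level in naive 3, 74 their highest media level in media 1 and 75 their highest bovine level in bovine collagen 1. In rat tail collagen the highest level was split over the libraries, at 11, 31 and 34 genes. The median coefficient of variation over the 3 libraries was 11.7% in naive cells, 15.7% in media, 11.1% in bovine and 2.72% in rat tail collagen. By group means, 58 canonical genes had the order naive, media, bovine, rat tail from high to low, and 13 the order naive, bovine, media, rat tail.

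**Figure D2:**
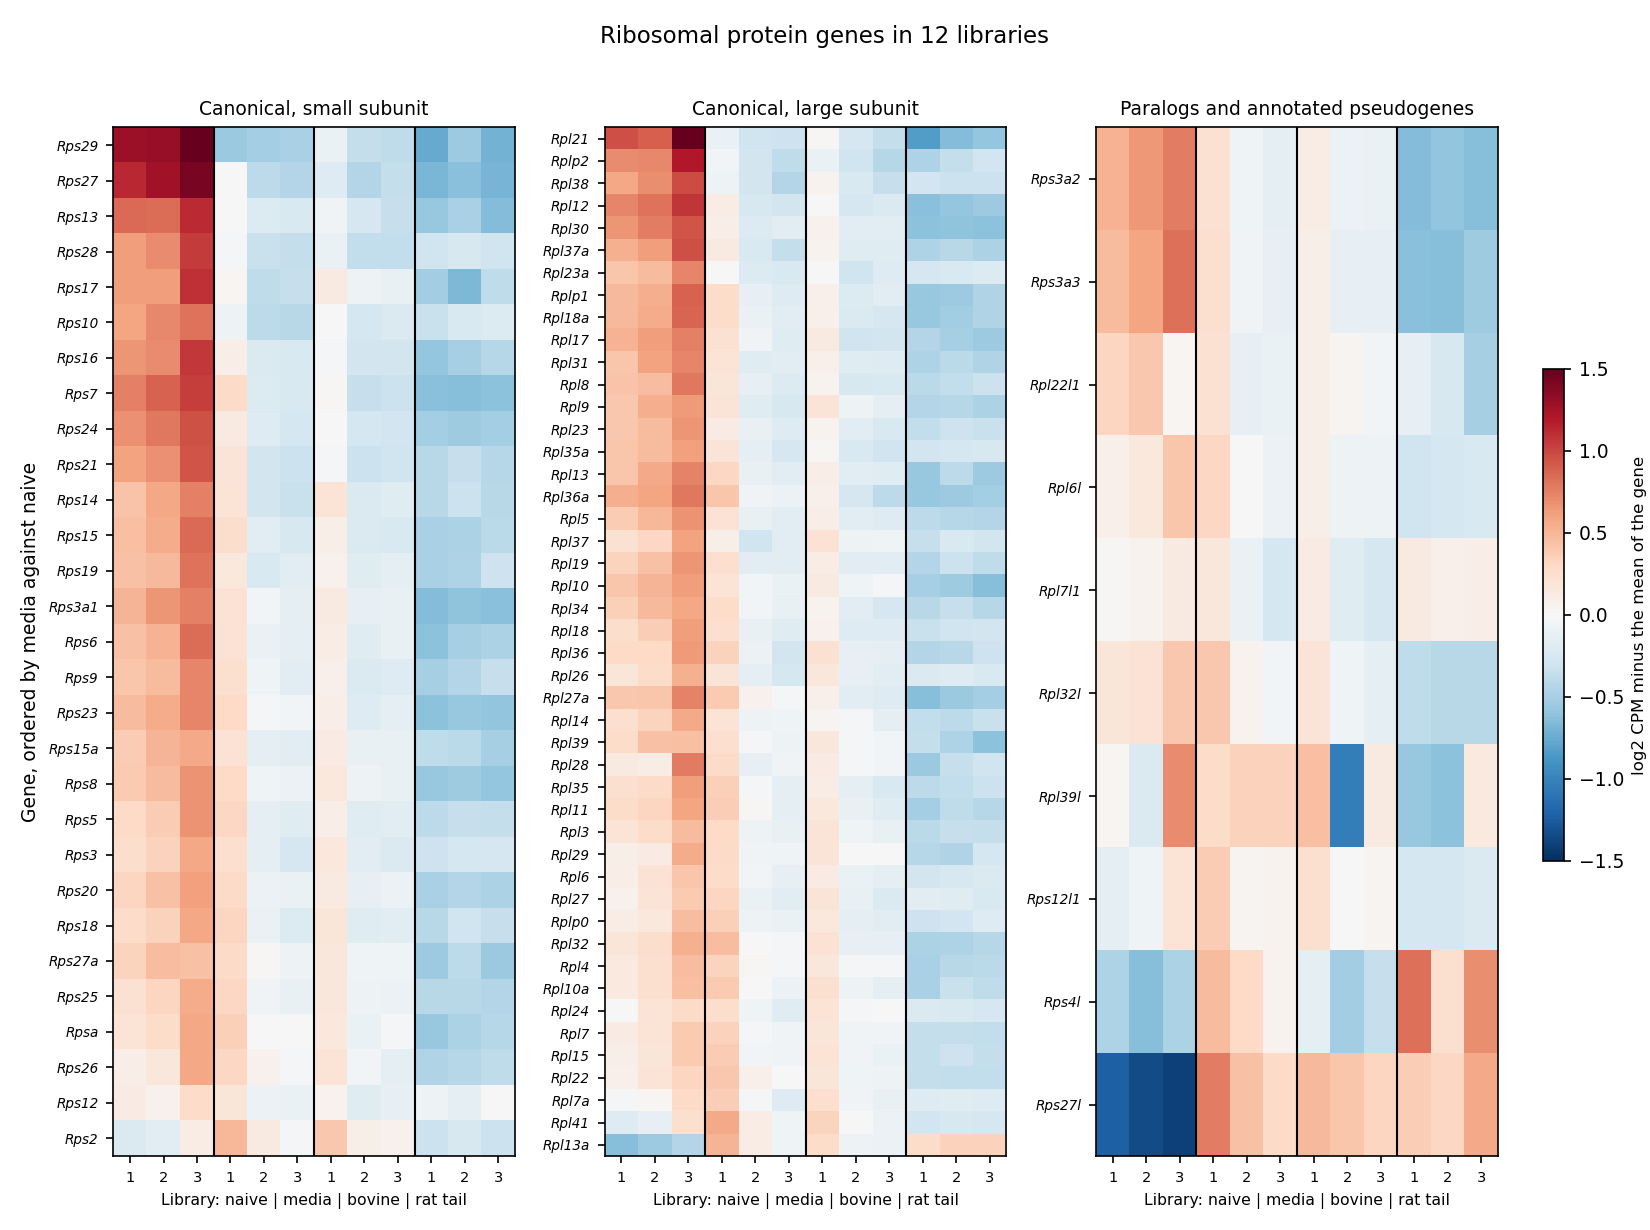
Colours give log2 CPM minus the gene's own mean over 12 libraries (red higher, blue lower, colour scale limited to 1.5 each way) for members past the low-count filter in the comparison of media with naive cells, ordered within each panel by the change between media and naive. Naive columns are reddest and rat tail columns bluest for most canonical genes, while Rpl13a, Rps4l and Rps27l, at or near the bottom of their panels, are blue in naive cells.

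Levels are compared between genes per kilobase of annotated exon, which depends on the annotated exon length. The acidic stalk protein gene Rplp1 had the highest level in every group, at 2425 ± 368 CPM per kb in naive cells and 1075 ± 49.5 in rat tail collagen (SD, n = 3). In naive cells it was followed by Rps15 (1868 ± 275), Rpl4 (1470.3 ± 170.3), Rpl8 (1439.9 ± 210.1) and the stalk scaffold gene Rplp0 (1316 ± 181). This order is by group means and was not tested. Members moved together between libraries, so the SD does not measure the difference between genes. These 5 genes made up 28.08% of the summed level per kb of all members. The median canonical gene stood at 224.5 CPM per kb in naive cells, 144.4 in media, 137.6 in bovine and 118.2 in rat tail collagen. At the low end in naive cells were Rps10 (12.96 ± 0.991 CPM per kb), Rps4l (1.39 ± 0.0924), Rpl39l (0.687 ± 0.238), Rpl3l (0.0502 ± 0.0514) and Rpl10l. Rpl10l, a retrogene known from testis, had 0 counts in 11 of 12 libraries, which allows 0.0502 to 0.119 CPM by a limit of 3 counts, and 2 counts in rat tail collagen 3; it never passed the filter on low counts. Of the 4 canonical genes whose exons overlap another gene on the same strand, Rps10, Rpl13a and Rpl24 stood at ranks 84, 81 and 80 of 88 in naive cells. Rpl19, also of this set, was not as low. In raw counts not divided by length it had 11965 in naive 1, where Rps10, Rpl13a and Rpl24 had 1050, 1789 and 917.

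Comparing media with naive cells asks how activation and culture change the set. Most members were lower in activated cells, but by unequal amounts. Of 86 members tested, 51 fell and 4 rose at an adjusted p under 0.05, with a median log2 fold change of -0.39 (a 1.31-fold lower level) against -0.0034 over all 18610 genes tested. Over all genes, 29.2% were called lower and 31.6% higher. Only Rpl3l and Rpl10l were not tested here. Among the canonical genes, 24 of 30 small subunit genes fell, with a median of -0.55, and 25 of 46 large subunit genes fell, with a median of -0.35; whether the subunits differ was not tested. The 76 canonical changes spread from -1.94 to 0.81 with an SD of 0.42, while the median standard error of one gene was 0.13.

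The falls with the smallest adjusted p were mostly in small subunit genes, though by size Rpl21 of the large subunit fell further than Rps13. Rps29 codes for a small zinc-binding protein of the small subunit head, and its levels were 177, 181 and 255 CPM in naive cells and 49.4, 51.2 and 52.1 in media. The media libraries lay within 3 CPM of each other and far below every naive library, at a log2 fold change of -1.94 (SE 0.13, adjusted p = 2.61e-06). Rps27, another zinc-binding small subunit gene, gave 195, 213 and 238 CPM in naive cells and 89.6, 67.7 and 65.5 in media, a change of -1.48 (SE 0.13, adjusted p = 1.08e-05) with no overlap. Rps13 changed from 127, 126 and 153 to 69.9, 60.9 and 59.9 CPM, or -1.03 (SE 0.10, adjusted p = 1.84e-05). All 3 genes were lower in every media library than in any naive library, and naive 3 was the highest of the 6 libraries in each. In the large subunit the fall with the smallest adjusted p was that of Rpl21, at 324, 311 and 469.9 CPM in naive cells and 156, 136 and 134 in media, a change of -1.31 (SE 0.15, adjusted p = 6.35e-05).

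Members of the ribosomal stalk did not move as one. The stalk binds the translation factors that drive elongation, and it is made of Rplp0 as the base with Rplp1 and Rplp2 as the flexible arms. Rplp2 went from 558, 562 and 788 CPM to 332, 281 and 262 CPM, a change of -1.06 (SE 0.14, adjusted p = 0.0002). Rplp1 went from 1083, 1127 and 1420.4 to 929.7, 705 and 675 CPM, or -0.59 (SE 0.14, adjusted p = 0.00612). Rplp0 had 1975, 2047 and 2529 CPM in naive and 2337, 1739.5 and 1709 CPM in media libraries, which overlapped through media 1, and its change of -0.12 (SE 0.14, adjusted p = 0.506) did not pass. Rpsa, the small subunit protein also known as the laminin receptor, had 1086, 1144 and 1414 and 1206, 939.9 and 947 CPM and likewise overlapped, at -0.17 (SE 0.13, adjusted p = 0.274).

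Only 4 members rose. Rps27l, the paralog of Rps27 and a known p53 target, had 13.5, 12.4 and 11.98 CPM in naive cells and 53.7, 42.8 and 38.5 CPM in media, a change of 1.90 (SE 0.13, adjusted p = 2.36e-06). Its lowest media library stood well above its highest naive library, and its change was opposite to that of Rps27. Rpl13a, whose protein also takes part in silencing of inflammatory transcripts in macrophages, had 46.9, 50.4 and 54.0 CPM in naive cells and 105, 78.9 and 70.1 CPM in media, or 0.81 (SE 0.13, adjusted p = 0.000684); it shares exon sequence with Gm45713 on its own strand. Rps4l, annotated as a transcribed processed pseudogene on chromosome 6, had 1.36, 1.21 and 1.35 CPM and 2.60, 2.31 and 1.95 CPM, or 0.87 (SE 0.20, adjusted p = 0.00464). Rps2 had 536, 554 and 676 CPM in naive and 884, 688 and 611 CPM in media libraries. For Rps2 the groups overlapped, since naive 3 exceeded media 3, and its change of 0.37 (SE 0.14, adjusted p = 0.0483) passed narrowly and held in 9 of 18 other settings; it was lost, among others, without media 1, media 2, naive 1 or naive 2 (adjusted p up to 0.169).

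**Figure D3:**
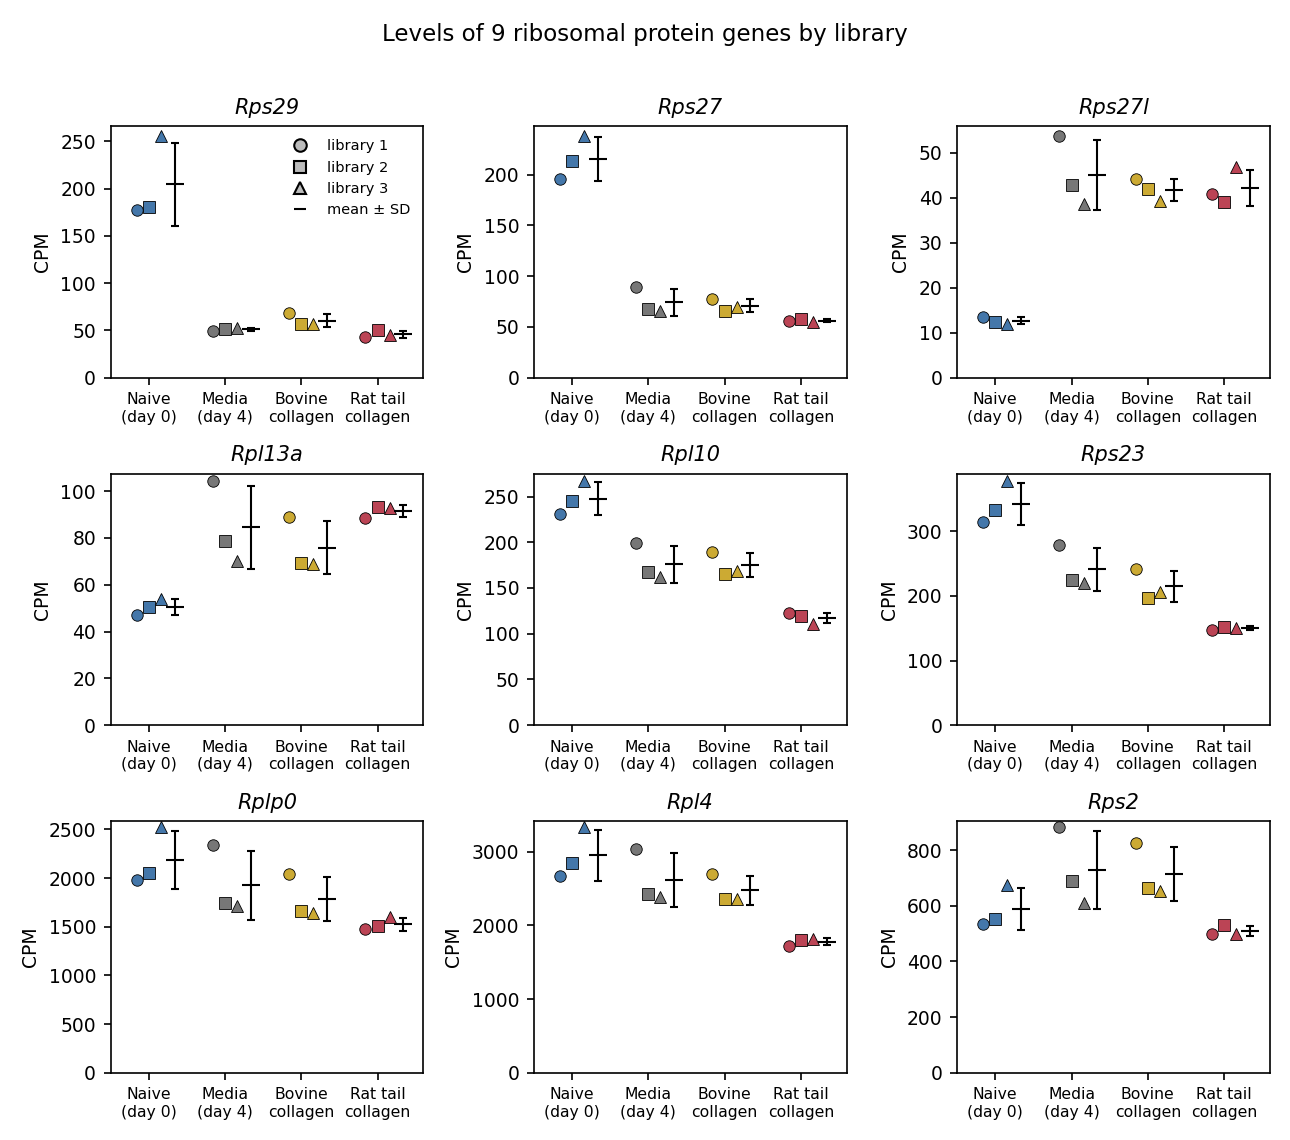
CPM of 9 ribosomal protein genes in each library by group (points), with mean and SD beside them; every axis starts at 0 and has its own scale. Rps29 and Rps27 are high in naive cells only, Rps27l and Rpl13a are low in naive cells only, and Rpl10, Rps23 and Rpl4 are lowest in the 3 rat tail libraries.

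Genes with known roles outside or at the edge of the ribosome are given next. Rpl5 and Rpl11, which bind MDM2 with the small ribosomal RNA of the large subunit, had log2 fold changes of -0.47 (SE 0.12, adjusted p = 0.00693) and -0.25 (SE 0.13, adjusted p = 0.136). Rpl11 levels were 208, 214 and 258 CPM in naive cells and 220.4, 174 and 154 in media and overlapped. Rps6, the substrate of S6 kinase, went from 481, 512 and 637 to 413, 333 and 322 CPM, or -0.55 (SE 0.13, adjusted p = 0.00481). Rps19, mutated in Diamond-Blackfan anaemia, fell at -0.60 (SE 0.13, adjusted p = 0.00306), and so did Rps14 at -0.65 (SE 0.15, adjusted p = 0.0042). Rpl38, which is known for its part in the translation of homeobox transcripts, had 148, 159.7 and 194 and 93.4, 81.4 and 73.0 CPM and fell further, at -0.95 (SE 0.12, adjusted p = 0.000113). Rps3, with a second role in DNA repair and NF-kappaB signalling, and Rps27a, made as a fusion with ubiquitin, passed with small changes of -0.37 (SE 0.14, adjusted p = 0.0485) and -0.26 (SE 0.10, adjusted p = 0.0427). Both calls were lost without media 2, media 3, naive 2 or naive 3; they held in 11 and 12 of 18 other settings, with adjusted p up to 0.169 for Rps3 and 0.158 for Rps27a.

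The comparison of rat tail collagen with media asks what the rat tail gel changes in activated cells. Most members were lower in the gel, and by similar amounts. Of 87 members tested, 65 fell and 1, the sparsely counted Rpl3l described below, was called higher, with a median log2 fold change of -0.42 (a 1.34-fold lower level) against -0.011 over all 19392 genes tested. Over all genes, 28.7% were called lower and 29.7% higher. The small and large subunit medians were -0.42 and -0.44, with 23 of 30 and 36 of 46 genes called lower. Canonical changes spanned -0.73 to 0.11 with an SD of 0.17, compared with 0.42 for media against naive cells, and the median standard error was 0.11. Without the 3 libraries of highest ribosomal RNA share (rat tail collagen 1 and 3 and bovine collagen 2), 1 rat tail library was left, the median was again -0.42, and 9 members were called lower, which is 10.3% of them and below the 14.1% of all genes called lower in that fit. Correcting each library for its trend with GC content and transcript length moved the median to -0.30 with 55 called lower and 3 higher. In that fit 28.5% of all genes were called lower.

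**Figure D4:**
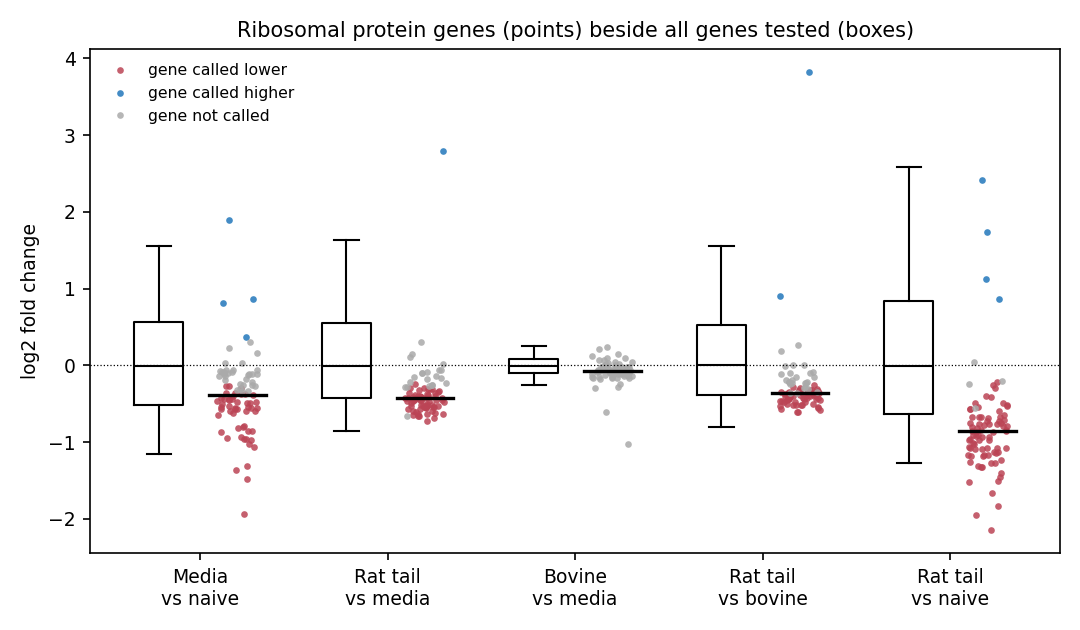
log2 fold changes of the ribosomal protein genes tested (points, horizontal line at their median) beside all genes tested (box with median and quartiles, whiskers from the 10th to the 90th percentile) in 5 comparisons. The members centre on -0.39, -0.42, -0.07, -0.36 and -0.86 from left to right, while every box is centred near 0; comparisons share groups and are not independent.

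Rps23, a protein of the decoding centre, had 279, 224 and 219.7 CPM in media and 147, 153 and 151 CPM in rat tail collagen, a change of -0.69 (SE 0.10, adjusted p = 0.00012). Rpl10, which completes the large subunit late in its assembly, had 199, 167 and 162 CPM and 122, 119 and 111 CPM, or -0.59 (SE 0.09, adjusted p = 0.000151). Rpl27a had 325, 258 and 241 and 159, 168 and 174 CPM, or -0.73 (SE 0.11, adjusted p = 0.000166), which was the lowest value among the canonical genes. In each of these genes the 3 rat tail libraries lay close together and below every media library. Rps3a1 (-0.66, SE 0.10, adjusted p = 0.000167) and its processed copies Rps3a2 (-0.65, SE 0.10, adjusted p = 0.000167) and Rps3a3 (-0.64, SE 0.10, adjusted p = 0.000164) gave nearly the same value. Of the genes with known roles, Rpsa (-0.63, SE 0.11, adjusted p = 0.000354), Rps27a (-0.59, SE 0.10, adjusted p = 0.000378), Rps6 (-0.53, SE 0.10, adjusted p = 0.000957), Rpl11 (-0.54, SE 0.12, adjusted p = 0.00278), Rpl5 (-0.42, SE 0.11, adjusted p = 0.00523) and Rps19 (-0.36, SE 0.11, adjusted p = 0.0117) were called lower. Rpl4, a protein lining the exit tunnel, showed the fall at a high level, with 3038, 2429.7 and 2385 CPM in media and 1726, 1801 and 1816 CPM in rat tail collagen.

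The 17 canonical genes without a call in this comparison were Rpl7a, Rpl13a, Rpl23a, Rpl24, Rpl26, Rpl27, Rpl35a, Rpl37, Rpl38, Rplp2, Rps3, Rps10, Rps12, Rps14, Rps21, Rps28 and Rps29. Several had differed widely between media and naive cells. Rps29 had 43.1, 50.0 and 44.7 CPM in rat tail collagen, overlapping the media libraries, at -0.16 (SE 0.09, adjusted p = 0.153), Rplp2 had 248, 267 and 281 CPM at -0.14 (SE 0.10, adjusted p = 0.263), and Rpl38 had 80.9, 79.0 and 78.7 CPM at -0.06 (SE 0.11, adjusted p = 0.638). Conversely, Rpl4 (-0.11 for media against naive, -0.56 for rat tail against media) and Rpl22 (0.03 and -0.54) passed in the second of these alone, though the difference between these changes was not tested and both use the media libraries. Counted by gene, 38 canonical genes were called lower in both comparisons, 11 in media against naive alone and 20 in rat tail against media alone. Rps2 was called higher in the first and lower in the second, Rpl13a higher in the first alone, and 5 were called in neither. Of all genes, 29.2% were called lower in the first and 28.7% in the second. The share of all genes called lower in both was not counted, and both comparisons use the media libraries. Within the stalk, Rplp1 and Rplp0 were called lower, at -0.53 (SE 0.12, adjusted p = 0.00261) and -0.34 (SE 0.13, adjusted p = 0.0347), and the call of Rplp0 held in 13 of 20 other settings and was lost without media 1 or any one of the rat tail libraries (adjusted p up to 0.247).

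Bovine collagen, the other gel at the same concentration, gave levels near those of media. None of the 87 members tested was called in either direction, where 0.0206% of all genes were called higher and 0% lower. At an unadjusted p under 0.05 there were 3 of 87 members and 810 of all 19392 genes tested. DESeq2 and limma-voom also called 0 members. The median was -0.07 against -0.0063 over all genes, with canonical changes from -0.29 (Rpl36a) to 0.24 (Rps29) and a median standard error of 0.11. Rps29 had 68.1, 56.8 and 56.2 CPM in bovine collagen, each above every media library, at 0.24 (SE 0.09, adjusted p = 1); Rps4l, at 1.70, 1.31 and 1.48 CPM, lay below every media library, at -0.60 (SE 0.21, adjusted p = 1). Groups without overlap were found for 1 member in each direction, against 903 (higher) and 798 (lower) of the 19392 genes. A missed threshold does not show equal levels: with a standard error of 0.11, single-gene changes as large as those of Rpl36a and Rps29 were not called. Leaving out media 1 turned the median to 0.05.

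Rat tail and bovine collagen were also compared directly, which tests the difference between the gels. Of 87 members, 59 were lower in rat tail collagen and 2 higher, with a median of -0.36 against 0.0026 over all genes; 26.4% of all genes were called lower and 28.4% higher. Rpl10 had 189.8, 166 and 169 CPM in bovine and 122, 119 and 111 CPM in rat tail collagen, a change of -0.58 (SE 0.09, adjusted p = 0.000196). Rpl30, which in yeast represses the splicing of its own transcript, had 225, 193 and 190.2 and 139.5, 141 and 139.7 CPM, or -0.54 (SE 0.09, adjusted p = 0.000401). Rps3a1, Rps3a2 and Rps3a3 changed by -0.61, -0.61 and -0.56. In all 5 genes the groups did not overlap, and the same was true of 73 of the 87 members in the direction of lower levels in rat tail collagen, against 31% of all genes tested. The number called lower rested partly on 1 library and on the scaling. It was 37 without bovine collagen 1 (42.5% of members, where 23.6% of all genes were called lower). It was 4 without the 3 libraries of highest ribosomal RNA share (4.60%, below the 11.7% of all genes), and 18 with library totals in place of TMM factors (20.7%, near the 16.6% of all genes). Library totals moved the median of all genes to 0.15 and that of the members to -0.21. Relative to all genes the members' median was -0.36 under both scalings.

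The members called higher in rat tail than in bovine collagen were Rps4l and Rpl3l. Rps4l had 3.32, 2.21 and 3.05 CPM in rat tail collagen, above every bovine library, at 0.91 (SE 0.21, adjusted p = 0.00298). Without the 3 libraries of highest ribosomal RNA share its change was 0.48 (adjusted p = 0.273), and the call held in the other 19 settings. Rpl3l, the striated muscle paralog of Rpl3, was close to the limit of detection everywhere, with 59 counts in all in rat tail collagen (14, 27 and 18), 3 in bovine collagen, 9 in media and 10 in naive cells. It passed the low-count filter only through the rat tail libraries, where it was high, so it had to differ once tested. Its adjusted p of 0.00724 against bovine collagen and 0.0101 against media rests on that selection and supports nothing, and it was not tested between media and naive cells. The pooled ratio of rat tail to bovine CPM was 15.4, and the ratio to media was 7.29. These ratios come from the same selected counts and add no support. All 9 media counts lay in media 3, and all 3 bovine counts in bovine collagen 3.

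Across both steps, from naive cells to cells from rat tail collagen, 79 of 87 members were lower and 4 higher, with a median of -0.86 (1.81-fold); 35.4% of all genes were called lower and 36.5% higher. Small subunit genes had a median of -1.04 and large subunit genes one of -0.79. Rps27 gave 55.4, 57.4 and 54.8 CPM in rat tail collagen, a change from naive of -1.94 (SE 0.08, adjusted p = 2.35e-08), and Rps29 gave -2.15 (SE 0.15, adjusted p = 4.06e-06). Rps7 (-1.52, SE 0.08, adjusted p = 1.31e-07), Rps13 (-1.51, SE 0.09, adjusted p = 2.26e-07), Rpl30 (-1.40, SE 0.08, adjusted p = 2.02e-07) and Rps3a2 (-1.27, SE 0.08, adjusted p = 3.03e-07) completed the falls with the smallest adjusted p. The canonical genes without a call were Rps2 (-0.20, SE 0.10, adjusted p = 0.0783) and Rpl41 (-0.24, SE 0.11, adjusted p = 0.0672). Rps27l (1.74, SE 0.09, adjusted p = 9.82e-08), Rpl13a (0.87, SE 0.07, adjusted p = 1.83e-06), Rps4l (1.12, SE 0.20, adjusted p = 0.000669) and Rpl3l were called higher, the last again after passing the filter only through its rat tail libraries. These values share their libraries with the 2 steps above and are no further evidence for them.

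Paralogs and their partners can be set side by side over all groups. Per kilobase, Rps27 stood at 207 ± 20.8 CPM in naive cells and 71.2 ± 12.8 in media, while Rps27l stood at 15.5 ± 0.947 and 55.2 ± 9.64 (SD, n = 3); the pair was far apart in naive cells and close together in media. Between media and rat tail collagen Rps27 changed by -0.42 (SE 0.11, adjusted p = 0.00571), and Rps27l had -0.10 (SE 0.11, adjusted p = 0.449), a value that turned to 0.39 (adjusted p = 0.00306) with offsets for GC content and length. In rat tail collagen they had 53.6 ± 1.30 and 51.6 ± 4.96 CPM per kb, and whether the pair differs was not tested. How close the pair lies depends on the annotated exon lengths, 1043 bases for Rps27 and 816 for Rps27l. Their longest transcripts have 672 and 575 bases, which would set the pair further apart. The level of Rps27 is also uncertain because of its copy Rps27rt. Rpl22l1, which can stand in for Rpl22 and is antisense to Gm33051, was at 55.6 ± 7.43 CPM per kb in naive cells and 38.2 ± 4.93 in rat tail collagen, and Rpl22, known to be needed for alpha-beta T cell development, at 133 ± 11.8 and 89.8 ± 0.342. Both fell from media to rat tail collagen, with changes of -0.54 (SE 0.11, adjusted p = 0.00103) for Rpl22 and -0.30 (SE 0.11, adjusted p = 0.0357) for Rpl22l1, the latter with overlapping groups and a call that held in 9 of 20 other settings and was lost without media 1, rat tail collagen 2 or rat tail collagen 3 (adjusted p up to 0.298). Rpl7 fell as well, from 1269, 989 and 965 to 782, 782 and 771 CPM (-0.47, SE 0.11, adjusted p = 0.00285), whereas Rpl7l1, a relative of Rpl7, had 70.5, 58.2 and 52.2 and 68.5, 65.8 and 67.2 CPM at 0.15 (SE 0.11, adjusted p = 0.287). Rpl3 changed by -0.42 (SE 0.11, adjusted p = 0.00714) and Rpl39 by -0.54 (SE 0.10, adjusted p = 0.000868). Rpl39l, a paralog known from male germ cells, stayed at or below 0.795 CPM in all 12 libraries, and none of its changes passed (rat tail against media -0.66, SE 0.34, adjusted p = 0.115).

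Features that the choice by name did not use were checked against these changes. The 13 canonical genes with a TOP run exactly at the RefSeq start (Rpl14, Rpl15, Rpl28, Rpl35, Rpl35a, Rpl38, Rplp2, Rps6, Rps10, Rps15a, Rps18, Rps21 and Rps27) had a median of -0.49 between media and naive cells with 9 called lower, against -0.37 with 25 lower and 2 higher for the 43 with other RefSeq starts. For rat tail collagen against media the medians were -0.40, with 8 called lower, and -0.43, with 34 called lower. Of all genes, 29.2% were called lower between media and naive cells and 28.7% between rat tail collagen and media. Within the first set, Rps27 and Rpl15 shared the motif and had log2 fold changes between media and naive cells of -1.48 and -0.06. Within 30 canonical genes lie 58 annotated small nucleolar RNA genes, 4 of them in Rpl13a. The longest annotated transcripts of canonical genes had a median of 1100 bases, compared with 2555 over all genes tested. Across the 76 canonical genes, Spearman's rho of the change with transcript length was 0.13 for media against naive and -0.16 for rat tail against media, and with GC content -0.04 and 0.25; genes of one library are not independent, so these are descriptions.

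Ribosomal genes that the naming rule leaves out were read in the same fit. Rps4x, the X-linked small subunit gene, fell between naive and media cells, at -0.86 (SE 0.13, adjusted p = 0.000438), and had -0.18 (SE 0.10, adjusted p = 0.165) between rat tail collagen and media. Fau, a fusion of a ubiquitin-like protein with a small subunit protein, changed by -0.52 (SE 0.14, adjusted p = 0.00998) and -0.31 (SE 0.12, adjusted p = 0.0359), and Rps27rt, a retrotransposed copy of Rps27, by -1.28 (SE 0.13, adjusted p = 3.17e-05) and -0.44 (SE 0.11, adjusted p = 0.00617). Rack1, a scaffold on the small subunit, had log2 fold changes of -0.26 and -0.24, neither of which passed. Rpl37rt fell between naive and media cells (-0.38, SE 0.12, adjusted p = 0.0245) and Rpl36al between media and rat tail collagen (-0.35, SE 0.13, adjusted p = 0.032). Of the 7 genes on this list, 4 fell in the first comparison and 3 in the second, where 29.2% and 28.7% of all genes were called lower.

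Other genes of the translation machinery were counted in the same fits and are read against the 31.6% of all genes called higher and 29.2% called lower between media and naive cells. Between media and naive cells, 48 of the 69 ribosome assembly factors were lower and 7 higher, with a median of -0.44; Mdn1, the AAA ATPase that remodels large subunit precursors, changed by -2.75 (SE 0.12, adjusted p = 1.36e-07), Pwp2 by -1.44 (SE 0.10, adjusted p = 2.25e-06) and Utp20 by -1.27 (SE 0.09, adjusted p = 2.44e-06), while Wdr12 rose by 1.64 (SE 0.09, adjusted p = 8.09e-07). The 19 other genes known for TOP transcripts, mostly translation factors, had a median of 0.03 with 5 higher (26.3%, near the share of all genes) and 1 lower. Among them Nap1l1, a histone chaperone, rose by 1.06 (SE 0.07, adjusted p = 1.83e-06) and Npm1, nucleophosmin, by 0.55 (SE 0.09, adjusted p = 0.000515), and Tpt1, a growth-related calcium-binding protein, fell (-1.14, SE 0.11, adjusted p = 1.74e-05). Of 31 initiation and termination factors without that label 12 rose (38.7%) and 5 fell (16.1%); Etf1, the release factor, rose by 0.80 (SE 0.07, adjusted p = 1.17e-05), and Eif1, which guards start codon choice, fell (-2.00, SE 0.09, adjusted p = 1.34e-07). Of 16 genes of ribosomal RNA transcription 3 rose and 7 fell, among them Taf1d at 1.70 (SE 0.10, adjusted p = 1.24e-06) and Polr1b, a subunit of RNA polymerase I, at -1.67 (SE 0.10, adjusted p = 1.21e-06). Of 33 chaperones of ribosomal proteins and genes of the mTOR and stress pathways that act on TOP transcripts 12 rose (36.4%) and 11 fell (33.3%), both near the shares of all genes, among them Eif2ak3, the PERK kinase, at 1.47 (SE 0.09, adjusted p = 1.06e-06) and Sesn2, a leucine sensor, at 1.59 (SE 0.12, adjusted p = 4.22e-06). Of the 77 mitochondrial ribosomal protein genes tested, a list added after values had been seen, 42 rose and 7 fell, with a median of 0.31.

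**Figure D5:**
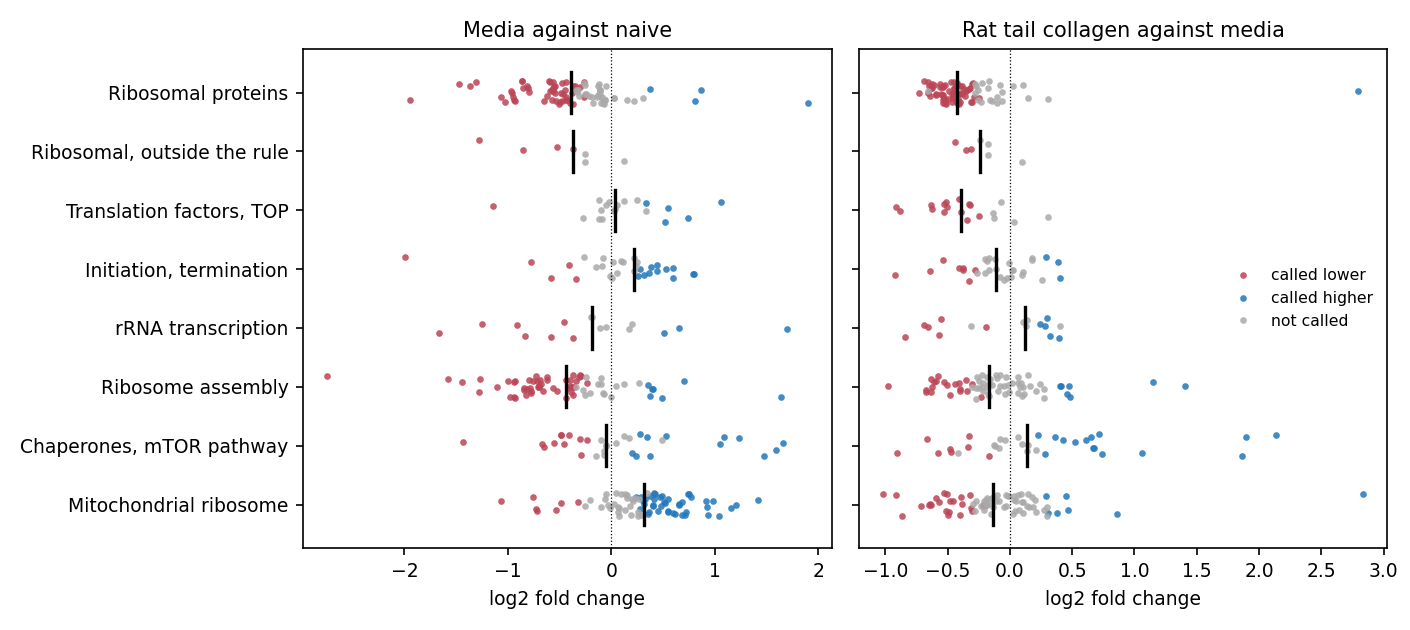
log2 fold changes of single genes (points; vertical line at the list median) for the ribosomal protein genes and 7 other lists of the translation machinery, media against naive on the left and rat tail collagen against media on the right, each on its own linear axis. Between media and naive cells the ribosomal proteins (-0.39) and assembly factors (-0.44) centre below 0 and the mitochondrial ribosome (0.31) above; between rat tail collagen and media the translation factors (-0.39) lie beside the ribosomal proteins (-0.42).

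Between rat tail collagen and media, 14 of the 19 translation factors and other genes with TOP transcripts fell (73.7%) and 0 rose, with a median of -0.39, where 28.7% of all genes were called lower and 29.7% higher. Hnrnpa1, a splicing regulator, changed by -0.91 (SE 0.08, adjusted p = 1.84e-06), Npm1 by -0.88 (SE 0.08, adjusted p = 2.65e-06), Nap1l1 by -0.53 (SE 0.07, adjusted p = 3.82e-05) and Eif3e by -0.62 (SE 0.09, adjusted p = 0.000111). Of 69 assembly factors 20 were lower (29.0%, the share of all genes) and 7 higher, with a median of -0.17, among them Ncl, nucleolin, at -0.98 (SE 0.08, adjusted p = 1.46e-06) and, in the other direction, Utp4 at 1.41 (SE 0.15, adjusted p = 1.05e-05) and Mdn1 at 1.15 (SE 0.17, adjusted p = 0.000115). Of the 31 other initiation and termination factors 8 fell (25.8%, near the share of all genes) and 3 rose, with Eif4g2 at -0.92 (SE 0.07, adjusted p = 6.64e-07) and Eif3a at -0.53 (SE 0.07, adjusted p = 5.44e-05). Ribosomal RNA transcription genes were split, 5 higher (31.3%) and 6 lower (37.5%) of 16. Of 34 such chaperones and mTOR or stress pathway genes, 15 rose and 8 fell: Castor2, a paralog of the arginine sensor Castor1 upstream of mTORC1, rose by 2.14 (SE 0.07, adjusted p = 3.06e-09), Eif2ak3 by 1.06 (SE 0.09, adjusted p = 1.98e-06) and Zfp598, a sensor of collided ribosomes, by 0.74 (SE 0.09, adjusted p = 2.11e-05), and Rptor, the raptor subunit of mTORC1, fell (-0.91, SE 0.08, adjusted p = 2.04e-06). Mitochondrial ribosomal protein genes gave 7 higher and 25 lower (32.5%, near the share of all genes) of 77. Of the -ps symbols, 148 of 218 tested were called lower and 0 higher.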

How the data were processed

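Whole-number counts per gene symbol, as the authors deposited them for 12 libraries, were used unchanged. Per the submitters' processing notes, the tools included featureCounts, HISAT2, SAMtools and Picard, with FastQC and MultiQC, on mm10 (GRCm38). Their versions and order, the annotation release, the strand setting and the treatment of reads with several matches were not given in the sources used here. Per the labels' protocols, RNA was treated with DNase, ribosomal RNA was depleted, and 150 ng entered each library. Members and lists were chosen with earlier results of these data known.

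Counts were tested with edgeR 4.0.16 (R 4.3.3; quasi-likelihood F test, TMM factors, filterByExpr) over all genes, with Benjamini-Hochberg adjustment over all genes tested and a threshold of 0.05. The comparisons among media and the gels shared 1 fit of 9 libraries; each comparison with naive cells used 6. CPM are scaled by TMM factors, and shares use raw totals. The biological coefficient of variation was 12.01% to 13.55%. Gene positions came from GENCODE M21, which held 53291 of the symbols, and promoters from RefSeq. The fit was also run on counts simulated from its own estimates of spread, with genes independent and no effect of library number. That run does not check the fit for members that move together between libraries. Replicate libraries differed beyond counting noise, so none was the same library counted again. This does not show that they came from different mice. Same-numbered libraries deviated together in bovine collagen and media (correlations 0.59, 0.11 and 0.66 over genes), more weakly in rat tail collagen against media and against naive cells (0.075 to 0.17, each above the correlations with other numbers), and not throughout in the other 2 comparisons. Members named in the text are the paralogs, their partners, the stalk, genes with known roles, the 5 highest and lowest per kilobase, and up to 5 called genes per direction and comparison with the smallest adjusted p; beyond this rule, Rpl15, Rpl36a, Rpl41 and the genes listed as not called were chosen after their values were seen. From each other list, up to 4 called genes per comparison with the smallest adjusted p were named; some genes that these rules would name are not reported here, singly or in the heat map. Alternatives used DESeq2 1.42.0, limma 3.58.1, other scalings and filters, a replicate block, removal of libraries, and offsets for GC content and length.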

Additional observations from a re-analysis of the deposited data

Results flagged for a closer look

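The effect on the members differed between the gels, both measured against the same media libraries: 59 members were lower in rat tail than in bovine collagen by the direct test of that difference, and 2 (Rps4l and Rpl3l) were higher, where 26.4% of all genes were called lower and 28.4% higher. The number lower was 37 without bovine collagen 1, 18 with library totals (16.6% of all genes) and 4 without the 3 libraries of highest ribosomal RNA share (11.7% of all genes), and Rpl3l passed the low-count filter only through its rat tail libraries.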

How the results depend on the processing

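No summary count or median of members changed direction under the alternatives, except that the bovine median, which had no calls, ranged from -0.15 to 0.05 when single libraries were left out. Over fits that left out 1 library, 37 to 62 members were lower for media against naive, where 25.3% to 28.7% of all genes were called lower. The same ranges were 53 to 71 for rat tail against media (24.7% to 27.6% of all genes). They were 37 to 64 for rat tail against bovine (22.8% to 24.5%) and 77 to 81 for rat tail against naive (30.8% to 34.1%). The number higher in rat tail against bovine ranged from 2 to 4, with 4 without bovine collagen 1. With the replicate block, 44, 69, 66 and 80 members were lower in these 4 comparisons and 0 in bovine against media. The shares of all genes called lower in these 4 were 26.7%, 30.7%, 28.6% and 36.3%, and 3, 1, 4 and 4 members were higher.

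Rat tail against media gave 0 members higher with a filter of 1 CPM in 3 libraries, which leaves Rpl3l out, 3 with GC and length offsets and 5 with the replicate block and these offsets. Rat tail against bovine gave 4 higher and 18 lower (median -0.21) with library totals, 1 higher with the 1 CPM filter, 4 with the replicate block, 5 with the offsets and 6 with block and offsets. Without the 3 libraries of highest ribosomal RNA share, rat tail against media gave 0 higher and 9 lower, and rat tail against bovine 0 and 4, with 1 rat tail library assumed to vary like the other groups. Rps27l in rat tail against media changed from -0.10 to 0.39 with the offsets (adjusted p = 0.00306; 0.00268 with the block too); the cause was not tested. With the -ps symbols added, the summed shares were 7.14% in naive, 5.32% in media, 4.77% in bovine and 4.06% in rat tail libraries, and without ribosomal RNA the rat tail share was 3.01%. Without the filter on low counts, the median of all genes moved to -0.20 for media against naive and to 0.11 for rat tail against media, where the members' medians were -0.36 and -0.47.

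With 3 libraries per group, a change in a single gene has to be well above the median standard error of 0.11 to 0.13 on the log2 scale to be called: between media and naive cells a canonical change of -0.34 was not called, and the smallest that was called was -0.26 (Rps27a). Rpl3l, Rpl10l and Rpl39l are limited by their counts.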
